A study of Mus musculus with 2 samples.

Results

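The 10 genes described here make prostaglandins or receive them. They were chosen by name as enzymes and receptors of the pathway, with earlier results of these data known. Of them 9 had a probeset, the set of probes that reads a gene, among 22180 genes with a probeset of their own. Ptgs1, the constitutive cyclooxygenase gene, was paired with no probeset in the annotation used and was not analysed here. Values came from myofibroblasts grown from the small bowel of BALB/c mice without genetic change (wild-type), the contractile stromal cells beneath the gut epithelium. The non-stimulated cells were cultured alone, and the stimulated cells were kept for 1 day with homogenized eosinophils of the intestine, at 5 mg/ml. Each condition is 1 array of RNA pooled from 3 cultures, so no test between the conditions was possible, no value has an error, and every difference describes these 2 pools.

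Prostaglandins are lipid mediators made on demand. A phospholipase frees arachidonic acid from membranes, a cyclooxygenase turns it into the unstable intermediate prostaglandin H2, and a terminal synthase then makes prostaglandin E2, prostacyclin, prostaglandin D2, prostaglandin F2 alpha or thromboxane from it. The products leave the cell, act on G protein-coupled receptors of the same or of neighbouring cells, and are taken up and oxidised. In the gut, stromal cells are a known source of prostaglandin E2, which acts on epithelial growth, repair, blood flow and leukocytes.

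The inducible enzymes of prostaglandin E2 synthesis read higher after stimulation, while the enzyme that frees arachidonic acid and most receptors hardly differed. Ptges, the inducible microsomal synthase of prostaglandin E2, was 1.52-fold higher on the stimulated array, outside the central 95% of genes of like level. Ptgs2, the inducible cyclooxygenase, was 1.23-fold higher, only just past that range for its own level. Ptger3, an inhibitory prostaglandin E2 receptor, was 1.22-fold lower, inside the range for its own level. The other 5 genes above background differed by under 0.1 in log2 units, and Ptgds was under background on both arrays. In pooled RNA, a change in the mix of cells and a change in RNA per cell cannot be told apart.

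The sequences before the start sites of these 3 genes are shown because they are the members with the largest differences above background. They are the 250 bases before the annotated start, 5′ to 3′, from the RefSeq promoter table of GRCm38.p6, in which 9 of the 10 members had an entry. Ptges lies at chr2:30903298-30903547, minus strand. Ptgs2 lies at chr1:150099781-150100030, plus strand. Ptger3 lies at chr3:157566626-157566875, plus strand. Capitals mark GC boxes (GGGCGG on either strand) and, in Ptgs2, a match to the C/EBP motif TTGCNNAA.
Ptges: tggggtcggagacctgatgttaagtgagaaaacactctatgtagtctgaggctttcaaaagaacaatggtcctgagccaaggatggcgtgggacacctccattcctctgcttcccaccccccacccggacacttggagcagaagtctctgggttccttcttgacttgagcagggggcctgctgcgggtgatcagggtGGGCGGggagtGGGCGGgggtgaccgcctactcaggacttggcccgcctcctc
Ptgs2: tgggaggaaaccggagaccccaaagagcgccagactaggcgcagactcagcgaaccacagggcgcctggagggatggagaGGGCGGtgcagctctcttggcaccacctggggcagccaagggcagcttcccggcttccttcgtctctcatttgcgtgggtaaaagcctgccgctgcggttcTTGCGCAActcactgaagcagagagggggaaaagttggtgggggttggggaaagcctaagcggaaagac
Ptger3: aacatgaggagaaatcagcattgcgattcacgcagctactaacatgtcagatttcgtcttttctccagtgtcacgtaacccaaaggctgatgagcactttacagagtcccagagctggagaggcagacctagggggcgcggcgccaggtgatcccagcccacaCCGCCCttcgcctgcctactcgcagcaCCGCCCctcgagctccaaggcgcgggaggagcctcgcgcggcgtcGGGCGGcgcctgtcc

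All 3 stretches held the GC box, the motif of Sp and Egr family factors. The bases G and C made up 59.6% of the Ptges stretch, 61.6% of Ptgs2 and 62% of Ptger3. The median over all promoters was 52.4%. Ptges held 2 copies, 53 and 42 bases before the start as counted to the first base of each, Ptgs2 held 1 copy at 170 bases before it, and Ptger3 held 3 copies. The receptor genes Ptger4 and Ptgir, which hardly differed between the arrays, held 4 and 2 copies. Ptgs1, Ptgds, Ptger2 and Pla2g4a held none. Of all 32851 promoters of the table, searched on both strands over 300 bases that include 50 after the start, 35.7% held a GC box. Ptgs2 was the only member with an E-box (CACGTG, in 7.15% of promoters) or the core of a cAMP response element (TGACG, in 20.8%). These 2 matches share bases and begin at bases 17 and 14 counted from the annotated start. Whether transcription begins at that annotated start was not tested, so positions are relative to the annotation only. The C/EBP match of Ptgs2, read on both strands at the same bases, began 69 bases before the annotated start, and 10.8% of promoters held one. Ptger2 held the only other C/EBP match among the members. The consensus for NF-kB (4.51% of promoters) was found in Ptgds alone, beside an AP-1 motif (TGANTCA, in 7.81%). The full element TGACGTCA, in 1.79% of promoters, was found in none of the 9 members, and TATAAA, in 13.6%, was found in 1 of the 2 promoters of Pla2g4a. These matches describe letters in a window and are not binding sites.

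Values below are the authors' log2 RMA values, and differences are stimulated minus non-stimulated. The median over all 41345 probesets was 5.76 without and 5.77 with homogenate. Probesets of odorant and vomeronasal receptor genes, 1405 in number, set a background level at 5.58 without and 5.57 with it, and a gene was compared when it passed it on at least 1 array, as 14065 genes did. Their median difference was 0.00, with 50.2% of them higher. All 10 fibroblast markers were above background, among them Vim at 13.10 and 13.16. All 6 contractile markers were above it too, and all 6 read lower after stimulation, by a median of -0.47, with Acta2 at 13.07 and 12.78. The part of this lower contractile signal in the differences below was not tested. In the labels the source field says eosinophils, but the protocols and the series title say myofibroblasts. None of 6 eosinophil and 8 mast cell markers was above background, Epx reading 4.73 and 5.25 and Cpa3 reading 3.33 and 3.29. Of 8 macrophage markers 4 were above it, with a mean over the whole list of 5.53 and 5.58, and Adgre1 and Csf1r were under it on both arrays. Of 6 enteric neuron and glia markers 5 were above it, with Sox10 at 8.22 and 8.05 and a median difference of -0.14 over the list. Of 8 epithelial markers 5 were, and of 6 endothelial markers 4 were. The median differences over these whole lists, markers under background included, were 0.11 and 0.06. Epcam and Vil1 were under background on both arrays. Of 7 lymphocyte markers 1 was above it and of 6 neutrophil markers 2 were. The part of these cell types in the differences below was not tested.

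**Figure D1:**
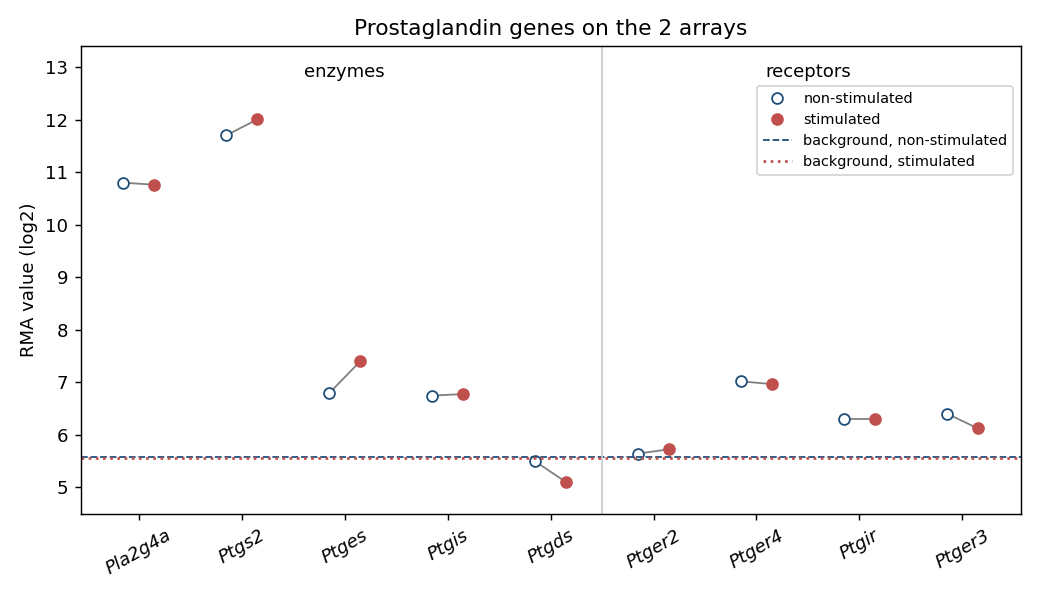
The log2 RMA value of the 9 measured prostaglandin genes on the non-stimulated array (open circles) and the stimulated array (filled circles), 1 array each, with the background level of each array as a dashed and a dotted line. Ptges and Ptgs2 are higher on the stimulated array, Ptger3 is lower, and Ptgds lies under both background levels. Heights of different genes come from different probes and are not comparable.

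The pathway begins with Pla2g4a, the cytosolic phospholipase A2 that releases arachidonic acid from membranes. It read 10.80 without and 10.76 with homogenate, a log2 difference of -0.04. Both values were over 5 log2 units above background. The difference was inside the central 95% of the 3516 brightest genes, which ran from -0.25 to 0.29.

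Ptgs2, the cyclooxygenase that many cells induce on inflammatory signals, followed at 11.70 without and 12.00 with homogenate. Its probeset was thus already 6.12 log2 units above background in cells cultured alone. The difference of 0.30 was just past the central 95% of the brightest genes, and 629 of the 14065 genes (4.47%) were higher by at least as much. With 1 array a condition, a difference of this size cannot be told from the spread between cultures, which was not measured.

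Ptges, which converts prostaglandin H2 to prostaglandin E2 and often acts with Ptgs2, read 6.80 without and 7.40 with homogenate. Both arrays were clear of background, by 1.21 and 1.83 log2 units. The difference of 0.60 ranked 104th from the top of the 14065 genes and lay outside the range from -0.39 to 0.36 that held the central 95% of 3516 genes of like level. It was the only prostaglandin gene here past 1.5-fold higher, which 0.796% of all genes were. None was past 2-fold in either direction, against 0.192% of all genes higher and 0.0427% lower, and none was past 1.5-fold lower, against 0.64%.

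The member synthases of other prostaglandins hardly differed or were under background. Ptgis, which makes prostacyclin, read 6.75 and 6.78 without and with homogenate, a difference of 0.03. Ptgds, the lipocalin-type synthase of prostaglandin D2, read 5.50 and 5.10 and was under background on both arrays, so no fold is given. Ptges therefore differed on these arrays while the measured synthase of prostacyclin read nearly alike.

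Among the receptors, those that couple to the stimulatory G protein and raise cyclic AMP read nearly alike on both arrays. Ptger4, the EP4 receptor of prostaglandin E2, read 7.02 and 6.97 without and with homogenate. Ptger2, the EP2 receptor, read 5.64 and 5.73, only 0.06 and 0.16 above background, so that a difference could hardly be seen. Ptgir, the receptor of prostacyclin, read 6.30 on both arrays, with the same value to the last of 5 deposited decimals. Such identical values were found for 227 of the 14065 genes (1.61%).

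Ptger3, the EP3 receptor, which lowers cyclic AMP through inhibitory G proteins, read 6.41 without and 6.12 with homogenate. The difference of -0.28 was the lowest among the members above background. It was inside the central 95% of the 3517 dimmest genes, from -0.51 to 0.48, and 6.11% of all genes were lower by at least as much. Past 1.2-fold were thus Ptges and Ptgs2 among the higher genes, against 6.11% of all genes, and Ptger3 among the lower ones, against 6.91%. The count of 1 lower gene became 0 when differences were centred on a lowess trend over level, where Ptger3 read -0.26. It also became 0 with a stricter background that Ptger3 did not pass.

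**Figure D2:**
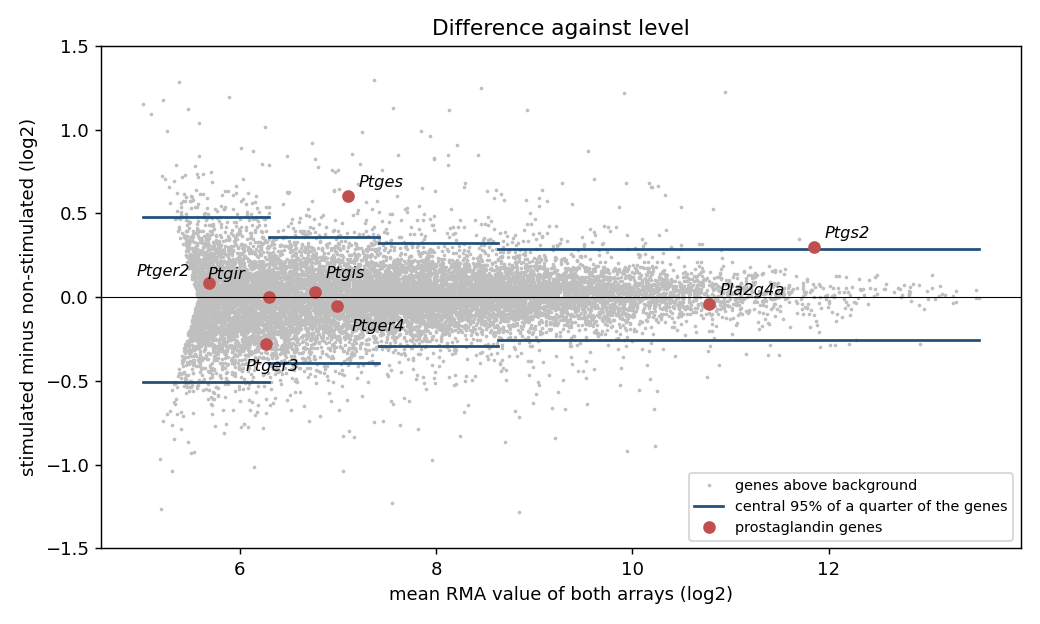
Stimulated minus non-stimulated log2 value against the mean of both arrays, for 14065 genes above background (grey points, 12 of them beyond the axis limits of 1.5) and the 8 prostaglandin genes above background (filled circles with names). Blue lines bound the central 95% of the differences in each of 4 equal sets of genes by level; Ptges at 0.60 lies above its bound of 0.36, Ptgs2 at 0.30 lies at its bound of 0.29, and the other 6 lie inside.

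Around the members, 9 lists of the same pathway were read in the same way. The lists were chosen with earlier results of these data known, so their counts and shares are descriptions and no test. In the supply of arachidonic acid, 8 of 23 genes above background were higher and 15 were lower, and their median was -0.06. Past 1.2-fold were 2 higher and 5 lower genes, 8.70% and 21.7% of the list, against 6.11% and 6.91% of all genes. The shares of all genes are not matched for level. Among the lower genes, Pla2g10 and, named after their values were seen, Pla2g2c (-0.27) and Pla2g12b (-0.26) belonged to the 3517 dimmest genes. All of these lay inside the central 95% at that level, from -0.51 to 0.48. The other lower genes, Mgll and Faah, lay below the bound of -0.39 of their level. Mgll and Faah, hydrolases of the endocannabinoids 2-arachidonoylglycerol and anandamide, which set arachidonic acid free, were 1.41-fold and 1.36-fold lower. Mgll read 7.14 without and 6.65 with homogenate, and Faah read 6.87 and 6.43. The synthases of 2-arachidonoylglycerol, Dagla and Daglb, named after their values were seen, differed by -0.22 and -0.16. Of the phospholipases, Pla2g10, a secreted enzyme, was 1.42-fold lower, from 6.13 to 5.62 and so close to background on the stimulated array. Plaat3, an acyltransferase with phospholipase activity, was 1.40-fold higher, from 6.47 to 6.95. The other gene past 1.2-fold higher was Plcb1, at 0.31, named after its values were seen. Abhd6 and Plcg1, named in the same way, differed by 0.17 and 0.16. The list thus differed in both directions around a Pla2g4a that hardly differed.

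Enzymes that return arachidonic acid to membranes were all above background. Of these 10 genes 7 were higher and 3 were lower, and their median was 0.07. Acsl4, the acyl-CoA synthetase with a preference for arachidonic acid, was the only list member past 1.2-fold, from 9.96 to 10.26. It made up 10% of the list, against 6.11% of all genes past 1.2-fold higher and 6.91% past it lower. Acsl6 differed by 0.24 on its brighter probeset, and its other probeset, under background, read -0.08. Lpcat2 differed by 0.18 and Lpcat4 by -0.19, both of them acyltransferases of lysophospholipids.

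Other terminal synthases gave no gene past 1.2-fold higher, against 6.11% of all genes. Of 6 above background 2 were higher and 4 were lower, and their median was -0.06. Ptges2, another prostaglandin E2 synthase, named after its values were seen, read 7.45 and 7.44 without and with homogenate. Ptges3, the cytosolic synthase that is also the co-chaperone p23, read 6.55 and 6.76, a difference of 0.21. Of the 3 measured genes of prostaglandin E2 synthases, only the member Ptges, counted again here, was past 1.5-fold higher. Of all genes 0.796% were past 1.5-fold higher and 0.64% were past it lower. Akr1c18, an aldo-keto reductase that acts on steroids and prostaglandins, was at least 1.29-fold lower, since it was under background on the stimulated array. Akr1b8, a related reductase, differed by -0.19, and Prxl2b, the prostamide and prostaglandin F synthase, by -0.11. The haematopoietic prostaglandin D2 synthase Hpgds and the thromboxane synthase Tbxas1 were under background on both arrays.

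Of the receptors outside the members, Tbxa2r, the receptor of thromboxane, was 1.43-fold lower. It read 7.04 without and 6.52 with homogenate, so both arrays were above background. Ptgfr, the receptor of prostaglandin F2 alpha, was 1.21-fold higher, from 6.01 to 6.29. Ppard, a nuclear receptor proposed to bind prostacyclin, differed by 0.15, and Ptgfrn, a regulator of the prostaglandin F2 alpha receptor, by 0.09. Ptgdr, a receptor of prostaglandin D2, was under background on both arrays. In all, 5 genes of this list were above background, with 4 higher, 1 lower and a median of 0.09.

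Genes that carry prostaglandins across membranes or break them down were all higher among the 7 above background, where 50.2% of all genes were. Their median was 0.22, and the differences ran from 0.05 to 0.27. The exporters Abcc1 and Abcc4, of which Abcc4 carries prostaglandin E2 out of cells, differed by 0.27 and 0.25. Abcc4 read 7.06 without and 7.31 with homogenate. Slco2a1, the importer that starts prostaglandin clearance, named after its values were seen, differed by 0.18. The reductases Cbr3 and Ptgr1 differed by 0.25 and 0.22. Hpgd, which inactivates prostaglandin E2 by oxidation, was under background on both arrays at 4.84. Only Abcc1 passed 1.2-fold higher, 1 of 7 genes (14.3%) against 6.11% of all genes.

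The other branch of arachidonic acid metabolism, which makes leukotrienes, was mostly under background. This was so for 13 of 20 measured genes, so that 35% were above background, against 63.4% of all genes. The 7 above it had a median of 0.00, with 3 higher and 3 lower. Alox5ap, the protein that presents arachidonic acid to 5-lipoxygenase, was at least 1.24-fold higher on its brighter probeset, and its other probeset, under background on both arrays, read -0.10. Dpep2, a peptidase that converts leukotriene D4, differed by 0.26 on its brighter probeset and by 0.03 on the other, which read 6.24 and 6.28. Alox15, a lipoxygenase, differed by 0.19. Ltc4s, the leukotriene C4 synthase, differed by -0.11.

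**Figure D3:**
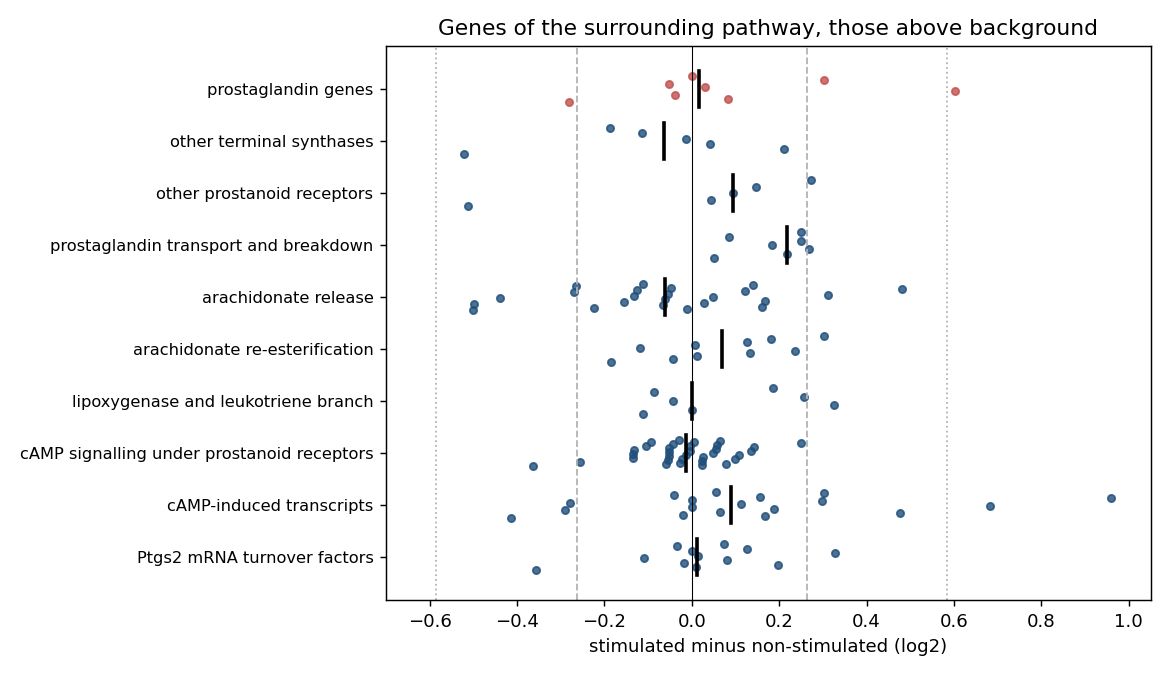
Stimulated minus non-stimulated log2 difference of each gene above background, 1 point a gene, for the 8 prostaglandin genes (red) and 9 surrounding lists (blue), with the median of each as a black bar. Dashed and dotted lines mark 1.2-fold and 1.5-fold; all 7 transport and breakdown genes lie right of 0, while points of the other lists lie on both sides.

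Downstream of the receptors, the genes of cyclic AMP signalling hardly differed. All 33 measured were above background, 14 higher and 19 lower, with a median of -0.01. Pde3a, a phosphodiesterase that degrades cyclic AMP, was the only one past 1.2-fold by its brightest probeset, at 1.29-fold lower, from 7.95 to 7.58. It made up 3.03% of the list, against 6.91% of all genes past 1.2-fold lower and 6.11% past it higher. Gnai1, an inhibitory G protein subunit of the kind EP3 uses, differed by -0.26, while the kinase subunit Prkar2b differed by 0.14. The phosphodiesterase Pde7a differed by 0.25 on its brighter probeset and by 0.40, past 1.2-fold, on the other, which read 5.92 and 6.33.

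Transcripts that cyclic AMP can induce differed in both directions. Of 18 above background, Ptgs2 among them, 11 were higher and 5 were lower, and their median was 0.09. Past 1.2-fold were 5 higher genes, with the member Ptgs2 counted again, and 3 lower genes. These were 27.8% and 16.7% of the list, against 6.11% and 6.91% of all genes. The list was chosen with earlier results of these data known, so its shares are no test. The cytokine Il6 was 1.95-fold higher, from 7.46 to 8.42, the growth factor Ereg 1.60-fold higher on its brighter probeset (0.22 in log2 units on the other), and the transcription factor Cebpb 1.39-fold higher. These genes also answer to inflammatory signals. Sik1, a kinase induced by cyclic AMP, was 1.33-fold lower, from 7.42 to 7.00. Chosen after their values were seen, Crem read 6.39 on both arrays, Pde4b differed by 0.07, Nr4a1 by -0.28 and Dusp1 by -0.29. Also chosen in this way, Sgk1 differed by 0.30, Junb by 0.19, Per1 by 0.17 and Nr4a2 by 0.16.

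The factors that set the lifetime of Ptgs2 messenger RNA were all 12 above background, with 7 higher, 4 lower and a median of 0.01. Zfp36l1, a decay factor that binds AU-rich elements, was 1.26-fold higher, from 9.42 to 9.75. Celf2, an RNA-binding protein that blocks Ptgs2 translation, was 1.28-fold lower on its brighter probeset, from 6.87 to 6.52, while its other probeset, under background on both arrays, read 0.36. Hnrnpd, the AU-binding factor AUF1, differed by 0.20 and Pcbp1, a poly(C)-binding protein, by 0.13.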

How the data were processed

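RNA of small intestinal myofibroblasts was read on the GeneChip Mouse Gene 2.0 ST array, 1 array of 3 pooled cultures per condition. The deposited values are the authors' log2 values per probeset. Affymetrix Expression Console and RMA were used, per the submitters' processing notes, with no version named. RMA includes quantile normalization, so differences are relative to all other probesets. Once sorted, the 2 columns were at most 0.0757 apart. No depth exists for arrays, and their number limits the precision.

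Of 41345 probesets, 23521 were paired with 1 gene by the platform annotation, 1814 with several and 16010 with none. RefSeq gave current symbols for 23328. The probeset with the highest mean of both arrays stood for a gene, and each of the 9 measured members had 1. Background was the 95th percentile of olfactory and vomeronasal receptor probesets on each array. A fold of a gene under it on 1 array is a bound against that array's level. Thresholds were 2-fold, 1.5-fold and 1.2-fold, without tests. The text names every member and up to 4 genes of each list with the largest difference above background, and genes under it on both arrays where relevant; others are marked as named after their values were seen. Members and lists were chosen with earlier results of these data known. Promoters came from the RefSeq table of GRCm38.p6, while the sources used here name no build for the array. Counting was run on simulated differences built to pass or miss 2-fold with certainty, which checks the counting code and not the spread of these data. Alternatives were no background filter, a 99th percentile background, a gene's mean or dimmest probeset, centring on the median or a lowess trend, and values raised to background. Python 3.11.15 with pandas 2.3.3, numpy 2.4.6 and statsmodels 0.14.6 was used.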

Additional observations from a re-analysis of the deposited data

How the results depend on the processing

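Over 7 alternatives, the differences of the 8 members above background moved by at most 0.05 on the log2 scale wherever the member could be compared. Each of these members had 1 probeset and passed background on both arrays. Only centring on the median or on a lowess trend could therefore change its difference, and the other alternatives returned the same value by construction. Ptges stayed at 0.60, Ptgs2 between 0.29 and 0.30, and Ptger3 between -0.28 and -0.26. Ptgir, at 0.00, read 0.00 when centred on the median and 0.02 on a lowess trend. The median over the 8 members was 0.02 and became 0.00 without a background filter. The number of members at least 1.2-fold lower was 1; it became 2 without a background filter, through Ptgds, 0 with a background at the 99th percentile and 0 with lowess centring. The other counts of members did not move. Over all genes, without a background filter 43 were at least 2-fold higher and 29 lower, 272 and 317 at 1.5-fold, and 1912 and 2466 at 1.2-fold. With the 99th percentile, 3 were at least 2-fold lower, 68 and 38 were 1.5-fold higher and lower, and 445 and 354 were 1.2-fold higher and lower. Of 70 comparisons of a list median, 3 moved by more than 0.05: re-esterification to 0.13 with the 99th percentile and 0.01 with the dimmest probesets, and the leukotriene branch to 0.08 with the mean of probesets. No paired analysis was possible because each condition has 1 array, and for the same reason no array could be left out. Signal over background limits Ptger2, Ptger3 and Ptgir, which did not pass the 99th percentile level.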
